A study of Mus musculus with 35 samples.

Results

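Smooth muscle cells wrap the airways and the vessels of the lung, and pericytes sit on its capillaries. They were followed here through 10 genes, which were set by name, with earlier results of these arrays known. Of these, 7 belong to the contractile apparatus of smooth muscle (Acta2, Myh11, Tagln, Cnn1, Actg2, Lmod1 and Des), and 3 are receptor or surface genes of mural cells, the cells of vessel walls (Pdgfrb, Cspg4 and Notch3). All 10 were measured, each by 1 probe set, among 19938 genes.

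RNA of whole lung was measured on Affymetrix Mouse Gene arrays, 1 array per animal, in adult male C57BL/6J mice of 20 to 25 g. The series asks how hypercapnia, a raised CO2 level, alters the lung injury that mechanical ventilation causes. All lungs were lavaged after the animals had been killed and before the tissue was frozen. Each array is labelled a biological replicate. The 5 non-ventilated mice breathed spontaneously in room air. Low stretch ventilation lasted 3 h, with breaths of 10 mL/kg, a rate of 135 per minute and an end-expiratory pressure (PEEP) of 2 cmH2O, in 5 mice in room air without added CO2 (low stretch normocapnia) and in 5 mice with an inspired CO2 fraction of 0.12 (low stretch hypercapnia). High stretch ventilation lasted 3 h at 35 to 40 mL/kg, 30 to 35 breaths per minute, a peak pressure of 27 cmH2O and a PEEP of 0 cmH2O, in 10 mice without CO2 (high stretch normocapnia) and 10 mice with an inspired CO2 fraction of 0.12 (high stretch hypercapnia), both at an inspired oxygen fraction of 0.75. High and low stretch therefore differ in pressure, rate and oxygen as well as in volume, and their parts cannot be told apart. The labels give 1 protocol of anaesthesia and tracheostomy for all samples and do not say whether the spontaneously breathing mice had both. Values are deposited log2 signals.

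Smooth muscle shortens when myosin, with the heavy chain that Myh11 encodes, pulls on filaments of smooth muscle actins such as those of Acta2 and Actg2. Calponin (Cnn1), transgelin (Tagln) and leiomodin (Lmod1) bind those filaments, and desmin (Des) forms the intermediate filaments around them. Many of these genes are driven by serum response factor with its coactivator myocardin, which bind CArG boxes, while pericytes are held on vessels by platelet-derived growth factor acting on the receptor Pdgfrb and by Notch3, and carry the proteoglycan NG2, encoded by Cspg4.

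Promoter sequences came from RefSeq (GRCm38.p6, 250 bases before to 50 after the start). Those of 6 of the 10 genes were searched: Acta2, Cnn1, Lmod1, Des, Cspg4 and Notch3. No sequence was found by symbol for Myh11, Tagln and Actg2, and Pdgfrb was left out of the search. Sequences of 3 contractile genes and a mural receptor are shown. These 4 were taken because they fell at high stretch against non-ventilated lungs, both without and with CO2. The 250 bases before the start are given 5′ to 3′ in the direction of the gene, for Acta2 at chr19:34255374-34255623 on the minus strand, for Cnn1 at chr9:22099003-22099252 and Lmod1 at chr1:135324563-135324812 on the plus strand, and for Notch3 at chr17:32166891-32167140 on the minus strand. Capitals mark CArG-like matches, which are CC and GG around 6 middle bases of which at least 5 are A or T.
Acta2: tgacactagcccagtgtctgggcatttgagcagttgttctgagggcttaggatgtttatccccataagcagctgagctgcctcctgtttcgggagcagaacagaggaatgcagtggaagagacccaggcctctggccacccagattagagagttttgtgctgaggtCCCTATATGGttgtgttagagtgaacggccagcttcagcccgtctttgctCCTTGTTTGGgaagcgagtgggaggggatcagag
Cnn1: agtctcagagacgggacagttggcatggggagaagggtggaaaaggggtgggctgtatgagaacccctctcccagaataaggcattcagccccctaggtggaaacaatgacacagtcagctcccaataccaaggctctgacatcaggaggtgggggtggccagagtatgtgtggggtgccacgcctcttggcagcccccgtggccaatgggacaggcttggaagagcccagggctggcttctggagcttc
Lmod1: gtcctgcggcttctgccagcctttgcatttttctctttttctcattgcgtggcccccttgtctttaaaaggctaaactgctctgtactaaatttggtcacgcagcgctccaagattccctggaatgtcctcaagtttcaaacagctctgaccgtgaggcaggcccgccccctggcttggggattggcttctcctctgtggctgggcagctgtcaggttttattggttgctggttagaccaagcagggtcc
Notch3: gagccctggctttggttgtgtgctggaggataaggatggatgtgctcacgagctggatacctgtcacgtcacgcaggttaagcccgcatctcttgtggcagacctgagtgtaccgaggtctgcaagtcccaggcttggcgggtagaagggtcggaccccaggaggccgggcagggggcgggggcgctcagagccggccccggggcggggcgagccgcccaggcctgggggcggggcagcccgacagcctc
Acta2 held 2 CArG-like matches, CCCTATATGG starting at position -84 and CCTTGTTTGG starting at -34, counted from the start of the gene. None of the other 5 windows held one, and 9.98% of 32851 windows of 300 bases in the RefSeq table did. A strict CArG box, with all 6 middle bases A or T, was in 0 of 6 windows and in 1.63% of all. TGGGAA, the core of the site of the Notch partner RBPJ, was searched on both strands. It was in 1 of 6 windows, that of Acta2 at -27, where it overlaps the second CArG-like match, and in 25.6% of all. TATAAA, also searched on both strands, was in 0 of 6 and in 13.6% of all. These are matches of letters in a short window and not binding sites.

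The 35 array medians lay between 6.96 and 7.05. Epithelial markers of lung were high on all arrays. The log2 of the summed linear signal of 9 alveolar genes lay between 15.74 and 15.87 on all arrays, with surfactant protein C (Sftpc) at a mean of 14.02. A list of 10 skeletal muscle genes, led by Acta1, separated 5 arrays from the others. Its summed log2 signal was 11.54 to 12.42 in non-ventilated replicate 5, low stretch normocapnia replicate 5, low stretch hypercapnia replicate 3 and high stretch hypercapnia replicates 1 and 2, and 9.66 to 10.38 in the other 30. Desmin is also a skeletal muscle gene. Counts without these 5 arrays are therefore given too. The share of all genes called in that smaller fit is not set beside those counts. Shares of all genes given below come from the fit of all 35 arrays and are no background for them.

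High stretch without CO2 was set against non-ventilated lungs first. Smooth muscle α-actin, γ-actin, myosin heavy chain, calponin, leiomodin and desmin were all lower at high stretch, by 16.1 to 22.2%, and so was Notch3, by 22.6%. Tagln, Pdgfrb and Cspg4 did not pass the test. The test throughout is limma over all 19938 genes, two-sided, with a Benjamini-Hochberg adjusted p under 0.05. In this comparison 7 of the 10 genes fell and 0 rose, where 18.9% of all genes fell, 17.4% rose and 36.3% passed in either direction. The median change of the 10 genes was -0.30 log2, and over all genes it was -0.03. Lists of other cell types had medians of -0.41 in skeletal muscle, -0.40 in endothelium and -0.38 in airway epithelium. The median was -0.28 both in fibroblasts and in cardiac muscle of pulmonary veins. In mesothelium it was -0.14, in alveolar epithelium -0.06 and in neutrophils 3.47. A median fall of this size was thus not particular to the 10 genes. In whole lung, fewer cells of a type and less RNA per cell cannot be told apart.

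Acta2 read 11.92, 12.01, 12.02, 12.06 and 12.15 in the 5 non-ventilated lungs. In high stretch normocapnia the lowest of 10 was 11.44, the median 11.66 and the highest 11.86. The groups did not overlap. The fall was -0.35 ± 0.08 log2 (SE; adjusted p = 0.000453), or 21.8%. Actg2, the γ-actin of visceral smooth muscle, read 8.11, 8.16, 8.21, 8.34 and 8.37 without ventilation, and 7.68 (lowest), 7.86 (median) and 8.11 (highest) at high stretch. Its highest ventilated lung lay just under its lowest non-ventilated lung. The change was -0.36 ± 0.08 log2 (adjusted p = 0.000407).

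Myh11 was tightest in non-ventilated lungs, at 9.95, 9.96, 10.00, 10.02 and 10.05. At high stretch it ran from 9.38 through a median of 9.72 to 9.92, so that all 10 lungs were below all 5 controls, but the spread was wider, with an SD of 0.20 against 0.04. Its change was -0.32 ± 0.09 log2 (adjusted p = 0.00304). Notch3, the receptor by which mural cells answer Notch ligands of neighbouring cells, read 9.01, 9.09, 9.27, 9.27 and 9.46 in non-ventilated lungs and 8.67 to 9.00, with a median of 8.85, at high stretch. It too did not overlap. Its change of -0.37 ± 0.06 log2 had the smallest p of the 10 genes (adjusted p = 1.44e-05). These 4 genes without overlap stand beside 7.91% of all genes that were lower without overlap in this comparison.

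For Cnn1 and Lmod1 the groups overlapped. Cnn1, which binds actin and slows the myosin motor, read 8.98, 9.00, 9.15, 9.15 and 9.28 in controls and 8.61 (lowest), 8.75 (median) and 9.14 (highest) at high stretch, where 8 of 10 lungs were below all controls. Its change was -0.30 ± 0.09 log2 (adjusted p = 0.0109). Lmod1, which nucleates actin filaments, read 7.25, 7.26, 7.42, 7.50 and 7.53 in controls and 6.80 (lowest), 7.10 (median) and 7.36 (highest) at high stretch, with 9 of 10 lungs below all controls. Its change was -0.31 ± 0.08 log2 (adjusted p = 0.00426).

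Desmin was the weakest of the calls. Des read 8.98, 8.99, 9.10, 9.28 and 9.36 in controls and 8.78 (lowest), 8.88 (median) and 9.00 (highest) at high stretch, a change of -0.25 ± 0.10 log2 (adjusted p = 0.0496). It no longer passed without non-ventilated replicate 1, 2 or 5, nor without any of high stretch replicates 1 to 7, at an adjusted p of 0.0513 to 0.164. Without the 5 arrays of skeletal muscle signal 6 of the 10 genes fell and Des did not pass, at -0.20 log2 (adjusted p = 0.0561).

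The 3 genes that did not pass differed in how close they were to the control level. Tagln read 10.10, 10.18, 10.19, 10.21 and 10.22 in controls and 10.06 (lowest), 10.20 (median) and 10.35 (highest) at high stretch. Its difference was 0.02 log2 with a 95% interval of -0.13 to 0.16 (adjusted p = 0.891). That interval does not reach the fall measured for any of the other 6 contractile genes. Pdgfrb, the receptor that recruits pericytes, differed by -0.04 log2 (-0.26 to 0.18; adjusted p = 0.808), and Cspg4 by -0.12 log2 (-0.28 to 0.04; adjusted p = 0.259). Falls of the size seen in Acta2 lay outside both intervals.

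High stretch with CO2 gave 5 falls of 10 against the same non-ventilated lungs, in Acta2, Actg2, Cnn1, Lmod1 and Notch3, with 17.6% of all genes falling and 33.8% passing in either direction. Myh11 and Des, which fell without CO2, did not pass here. The median change of the 10 genes was -0.22 log2 and that of all genes -0.04. In the lists of other cell types it was -0.34 in endothelium, -0.28 in airway epithelium and 3.28 in neutrophils. It was -0.15 to -0.05 in mesothelium, cardiac and skeletal muscle, fibroblasts and alveolar epithelium. All comparisons with non-ventilated lungs rest on the same 5 control arrays.

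Acta2 ran from 11.44 through a median of 11.75 to 11.98 in the 10 lungs of high stretch hypercapnia, with 9 below all controls, a change of -0.29 ± 0.08 log2 (adjusted p = 0.00379). Actg2 ran from 7.72 through 7.93 to 8.12, also with 9 below all controls, and changed by -0.30 ± 0.08 log2 (adjusted p = 0.00306). Notch3 ran from 8.80 through 8.98 to 9.09, with 6 below all controls, and changed by -0.24 ± 0.06 log2 (adjusted p = 0.00285). In each of these genes the upper end of the ventilated lungs reached into the controls, and none of the 10 genes was without overlap, where 5.98% of all genes were lower without overlap.

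The other calls at high stretch hypercapnia were in Cnn1 and Lmod1. Cnn1 changed by -0.26 ± 0.09 log2 (adjusted p = 0.0279), with lungs from 8.65 to 9.01, and lost the call without non-ventilated replicate 1, 2 or 3 (adjusted p of 0.0567 to 0.0999). Lmod1 changed by -0.22 ± 0.08 log2 (adjusted p = 0.041), with lungs from 6.90 to 7.38. It lost the call without non-ventilated replicate 2, 4 or 5, or without high stretch hypercapnia replicate 1, 4, 9 or 10 (adjusted p of 0.0559 to 0.125). Without non-ventilated replicate 2 both were lost, which left 3 genes. Without the 5 arrays of skeletal muscle signal 4 genes fell, and Lmod1 was at -0.23 log2 (adjusted p = 0.0634).

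Of the genes that did not pass, Myh11 was at -0.15 log2 (95% interval -0.32 to 0.03; adjusted p = 0.199), Des at -0.15 log2 (adjusted p = 0.293) and Pdgfrb at -0.23 log2 (-0.45 to -0.01; adjusted p = 0.107). Tagln was on the other side of 0, at 0.12 log2 (-0.02 to 0.27; adjusted p = 0.205), and so was Cspg4, at 0.07 log2 (adjusted p = 0.54). None of these 5 p-values shows that a gene kept its control level.

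**Figure D1:**
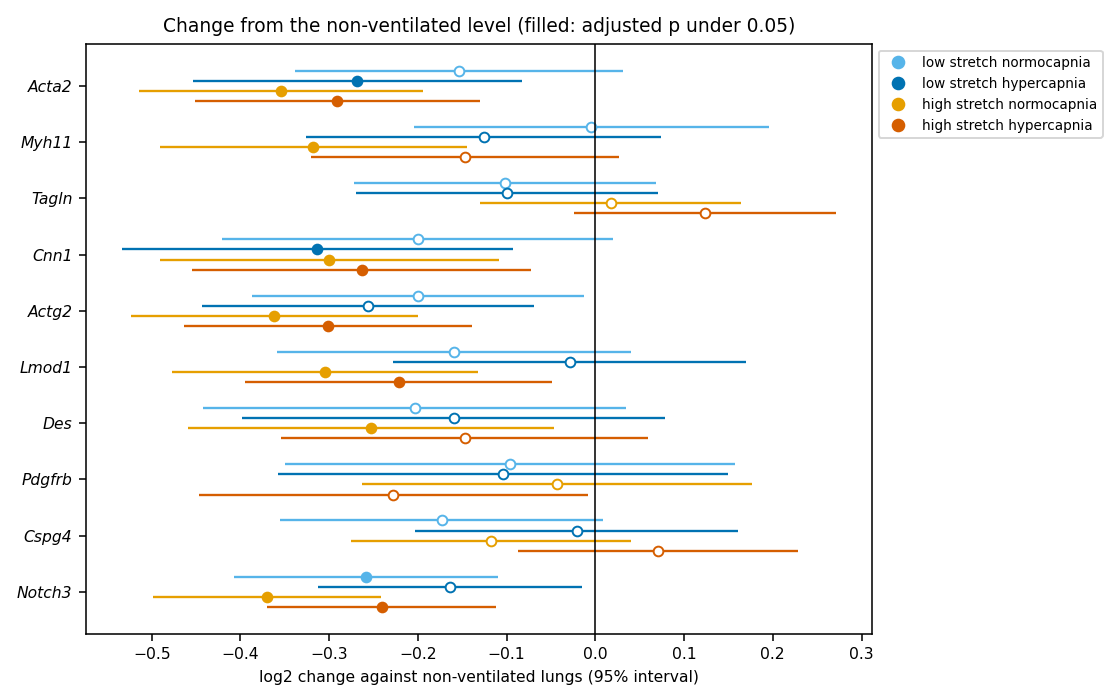
Log2 change of each gene from the non-ventilated mean in the 4 ventilated groups, with the 95% interval of limma (all 4 share 5 control arrays); filled points have an adjusted p under 0.05. Filled points number 1 and 2 at low stretch without and with CO2, and 7 and 5 at high stretch.

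Low stretch ventilation moved few of the genes past the threshold, although all 10 differences were negative both without and with CO2. Of all 19938 genes, 10285 were negative without CO2 and 9765 with CO2. The 10 genes share the 5 control arrays and did not vary independently between lungs, so their signs are not 10 separate observations. Without CO2, 1 of 10 fell, Notch3, where 5.17% of all genes fell and 11.8% passed in either direction. Notch3 read 8.84, 8.94, 8.97, 9.03 and 9.04, with 3 of 5 lungs below all controls, a change of -0.26 ± 0.07 log2 (adjusted p = 0.016). It no longer passed without non-ventilated replicate 1 (adjusted p = 0.0807) or low stretch normocapnia replicate 5 (adjusted p = 0.0574). The median of the 10 genes was -0.17 log2 and that of all genes -0.01. In the lists of other cell types it was -0.41 in endothelium, -0.17 in airway epithelium and 3.42 in neutrophils. It was -0.14 to -0.06 in mesothelium, skeletal and cardiac muscle, alveolar epithelium and fibroblasts. Myh11 lay at its control level, reading 9.86, 9.96, 10.01, 10.03 and 10.10, a difference of -0.00 log2 with a 95% interval of -0.20 to 0.20. Acta2 was at -0.15 log2 (-0.34 to 0.03; adjusted p = 0.336), with lungs at 11.67, 11.84, 11.93, 11.97 and 11.97.

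With CO2 at low stretch 2 of 10 fell, Acta2 and Cnn1, where 7.02% of all genes fell and 15% passed in either direction. Acta2 read 11.62, 11.67, 11.70, 11.80 and 12.02, of which 4 lungs were below all controls and 1 was within them. The change was -0.27 ± 0.09 log2 (adjusted p = 0.0413). Cnn1 read 8.53, 8.56, 8.82, 8.91 and 9.17, a change of -0.31 ± 0.11 log2 (adjusted p = 0.0461). Actg2 missed the threshold at -0.26 log2 (adjusted p = 0.0557), and passed without non-ventilated replicate 5 or low stretch hypercapnia replicate 3 or 5 (adjusted p of 0.0309 to 0.0438). Notch3 was at -0.16 log2 (adjusted p = 0.141) and passed without non-ventilated replicate 5 (-0.22 log2, adjusted p = 0.0446).

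Both low stretch hypercapnia calls depended on single arrays. Neither was left without low stretch hypercapnia replicate 1, 2 or 4, or without non-ventilated replicate 1 or 2. Acta2 was lost also without low stretch hypercapnia replicate 3 or non-ventilated replicate 4 or 5, and Cnn1 without non-ventilated replicate 3 (adjusted p of 0.055 to 0.179 over all these). Without the 5 arrays of skeletal muscle signal 3 genes fell, Cnn1 (-0.37 log2), Actg2 (-0.34 log2) and Notch3 (-0.26 log2), and Acta2 did not pass (-0.26 log2, adjusted p = 0.103). At low stretch without CO2 the same removal left 1 call, Notch3.

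Along the 5 groups the means of 8 genes were highest in non-ventilated lungs. The exceptions were Tagln, highest in high stretch hypercapnia, and Cspg4, highest there as well. Neighbouring means in the order were mostly closer than their spread. They differed by more than the larger SD only between non-ventilated and low stretch normocapnia in Acta2 and Actg2, and between low and high stretch normocapnia in Notch3.

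High stretch was then compared with low stretch, both without CO2. This sets larger breaths, a peak pressure of 27 cmH2O, no PEEP, a slower rate and added oxygen together against low stretch in room air. The labels give no peak pressure for low stretch. Of the 10 genes 1 fell, Myh11, where 9.56% of all genes fell and 18.3% passed in either direction. Its 10 high stretch lungs ran from 9.38 to 9.92 and its 5 low stretch lungs from 9.86 to 10.10, and 8 of the 10 were below all 5. The change was -0.31 ± 0.09 log2 (adjusted p = 0.00805), beside -0.32 log2 from the non-ventilated level, and it passed also without the 5 arrays of skeletal muscle signal. Acta2 was at -0.20 ± 0.08 log2 (adjusted p = 0.0753) and passed without low stretch normocapnia replicate 1 (-0.25 log2, adjusted p = 0.0324) or high stretch normocapnia replicate 2 (-0.22 log2, adjusted p = 0.0476).

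With CO2 in both groups, the gene that passed was Tagln, which rose from low to high stretch, 1 of 10 where 5.43% of all genes rose and 10.1% passed in either direction. It read 9.75, 10.02, 10.14, 10.23 and 10.27 at low stretch, and 10.10 (lowest), 10.31 (median) and 10.48 (highest) at high stretch. The groups overlapped. The change was 0.22 ± 0.07 log2 (adjusted p = 0.0431). It was lost without low stretch hypercapnia replicate 1, 2 or 5 or high stretch hypercapnia replicate 1, 5, 6, 8, 9 or 10 (adjusted p of 0.0502 to 0.229), and was 0.27 log2 (adjusted p = 0.0318) without the arrays of skeletal muscle signal. Myh11 and Acta2 were each at -0.02 log2 here, with 95% intervals of -0.19 to 0.15 and -0.18 to 0.14.

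Tagln was the 1 contractile gene that did not fall at high stretch without CO2. Its value on each array was also expressed against the mean of the other 6, as a difference from the same quantity in non-ventilated lungs. This measure was chosen after the values had been seen and carries no test. It ran from -0.12 to 0.09 log2 in non-ventilated lungs. At low stretch its median was -0.03 without CO2 and 0.11 with CO2, with 2 and 3 of 5 lungs above all controls. At high stretch the median was 0.30 without CO2 (0.02 to 0.57) and 0.42 with CO2 (-0.03 to 0.55). In both high stretch groups 9 of 10 lungs were above all controls, and the tenth lay within them.

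**Figure D2:**
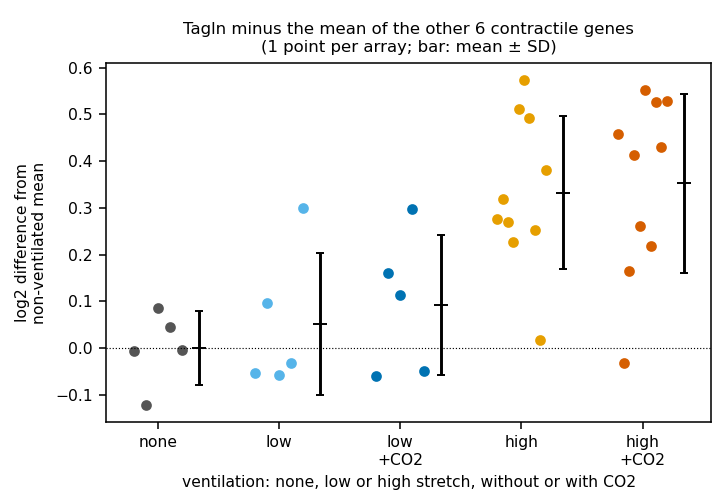
Tagln minus the mean of the other 6 contractile genes (Acta2, Myh11, Cnn1, Actg2, Lmod1, Des) on each array, in log2 units from the non-ventilated mean, with the mean and SD of each group. High stretch lungs lay mostly between 0.16 and 0.57, above the non-ventilated range of -0.12 to 0.09.

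Hypercapnia was compared with normocapnia at each stretch level. At low stretch limma called 0 of 10 genes, where 0.115% of all genes passed. An unadjusted p under 0.05 was found for 0 of the 10 and for 1839 of all 19938 genes. Differences ran from -0.12 log2 in Myh11 to 0.15 log2 in Cspg4. With 5 arrays in each group the 95% intervals were wide, for example -0.32 to 0.08 in Myh11 and -0.30 to 0.07 in Acta2. Without the arrays of skeletal muscle signal the count was also 0 of 10.

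At high stretch, with 10 arrays in each group, limma again called 0 of 10, where 5.56% of all genes passed. An unadjusted p under 0.05 was found for 4 of the 10 and for 3489 of all 19938 genes. All 7 contractile genes were on the higher side with CO2, by 0.04 to 0.17 log2, with a median of 0.08 where the median of all genes was -0.01. On the lower side were 10575 of all 19938 genes. The contractile genes did not vary independently between lungs, so their signs are not 7 separate observations. None of those 7 passed. The largest was Myh11, which ran from 9.38 through 9.72 to 9.92 without CO2 and from 9.56 through 9.89 to 10.07 with it, a difference of 0.17 ± 0.07 log2 (95% interval 0.03 to 0.31; adjusted p = 0.164). Acta2 differed by 0.06 log2 (-0.07 to 0.19, adjusted p = 0.717). The arrays of skeletal muscle signal in this comparison were all with CO2. Without them the 7 contractile genes ran from 0.01 log2 in Acta2 to 0.14 log2 in Myh11 (adjusted p = 0.434), and none passed. Des went from 0.11 to 0.04 log2, and Tagln stayed at 0.11 log2.

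The 3 mural genes did not go one way. Cspg4, the pericyte proteoglycan, ran from 7.45 through 7.63 to 7.77 without CO2 and from 7.64 through 7.81 to 8.02 with it, a difference of 0.19 ± 0.06 log2 (adjusted p = 0.0755). It passed without the arrays of skeletal muscle signal, which here are high stretch hypercapnia replicates 1 and 2 (0.23 log2, adjusted p = 0.0383), the 1 call of the 10 genes in that setting. Notch3 was higher by 0.13 ± 0.05 log2 (adjusted p = 0.154). Pdgfrb was on the lower side, running from 10.31 through 10.44 to 10.80 without CO2 and from 10.03 through 10.30 to 10.65 with it, a difference of -0.18 ± 0.09 log2 (adjusted p = 0.269), and 5 of 10 lungs with CO2 were below all 10 without.

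**Figure D3:**
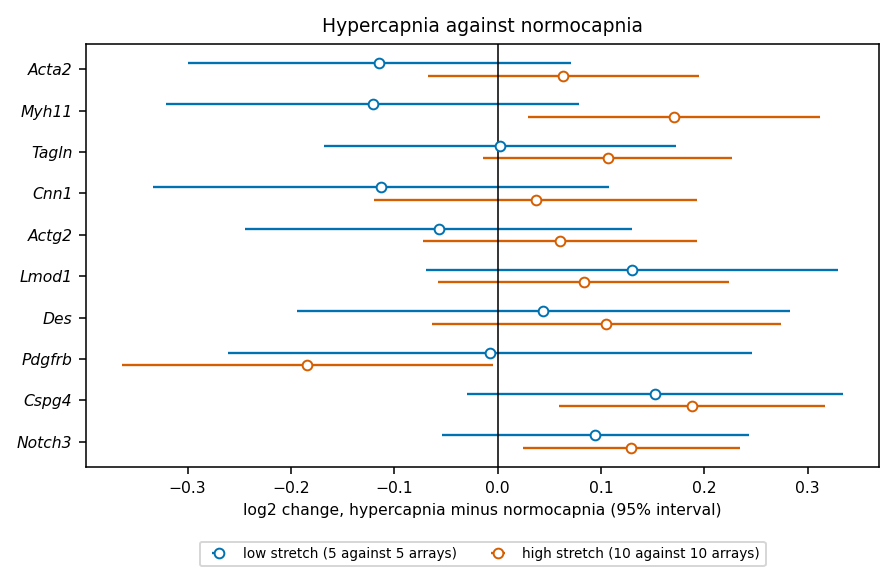
Hypercapnia minus normocapnia in log2 units for each gene at low stretch (5 against 5 arrays) and at high stretch (10 against 10), with the 95% interval of limma. No gene had an adjusted p under 0.05, and at high stretch the intervals of Myh11, Cspg4, Notch3 and Pdgfrb left out 0 before adjustment.

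Whether CO2 acted differently at the 2 stretch levels was tested as an interaction. It called 0 of 19938 genes (0%), and so 0 of the 10. At an unadjusted p under 0.05 it gave 893 genes in all and 1 of the 10, Myh11, with 0.29 ± 0.12 log2 and an adjusted p of 0.997. The CO2 difference of Myh11 was -0.12 log2 at low and 0.17 log2 at high stretch. Without the arrays of skeletal muscle signal the count for the 10 genes was also 0.

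Lungs of a group also differed among themselves, and the 10 genes did not vary independently. Group means were removed, and each of the 45 pairs was correlated over 35 arrays, with 100000 permutations within groups and adjustment over the 45 pairs. By Pearson r 12 pairs passed, all with a positive r. They were 9 of 21 pairs of contractile genes, 2 of 21 pairs of a contractile and a mural gene, and 1 of 3 mural pairs. By Spearman rho these counts were 12, 3 and 1. The share of pairs among all genes that would pass was not computed. The closest of the 45 pairs was Acta2 with Myh11, at a Pearson r of 0.86 and a Spearman rho of 0.85. Both had a permutation p of 1e-05, the smallest these permutations can give, and an adjusted p of 0.00045. The r was 0.82 without the 2 arrays farthest from the median of Acta2. Cnn1 with Actg2 followed (r = 0.69, rho = 0.66; permutation p = 4e-05 and 9e-05, adjusted 0.0009 and 0.00135; r = 0.65 without 2 arrays).

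Tagln varied with Pdgfrb rather than passing with a contractile gene. By Spearman rho alone it also passed with Cspg4 (rho = 0.46, adjusted permutation p = 0.046), at an r of 0.42 (adjusted permutation p = 0.0921). With the other 6 contractile genes its r ran from -0.19 to 0.35 and no pair passed, while its r with Pdgfrb was 0.67 and its rho 0.65 (permutation p = 0.00023 and 0.00032, adjusted 0.00252 and 0.00288; r = 0.61 without 2 arrays). Pdgfrb also varied with Cspg4, at an r of 0.59 and a rho of 0.62 (permutation p = 0.00092 and 0.00062, adjusted 0.0069 and 0.00399; r = 0.64 without 2 arrays). Cnn1 with Notch3 was the other mixed pair that passed by r, with r and rho of 0.45 (permutation p = 0.0125 and 0.0164, adjusted 0.0471 and 0.046, with r = 0.50 without 2 arrays). That pair no longer passed with each array centred on its median (r = 0.36, adjusted permutation p = 0.138) or without the arrays of skeletal muscle signal (r = 0.37, adjusted permutation p = 0.18). The median r was 0.43 among contractile pairs and 0.13 among mixed pairs. All genes of an array share its RNA and its scaling. With each array centred on its median 6 pairs passed, among them these: Acta2 with Myh11, Tagln with Pdgfrb, Cnn1 with Actg2 and Pdgfrb with Cspg4. Without the 5 arrays of skeletal muscle signal 10 pairs passed.

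**Figure D4:**
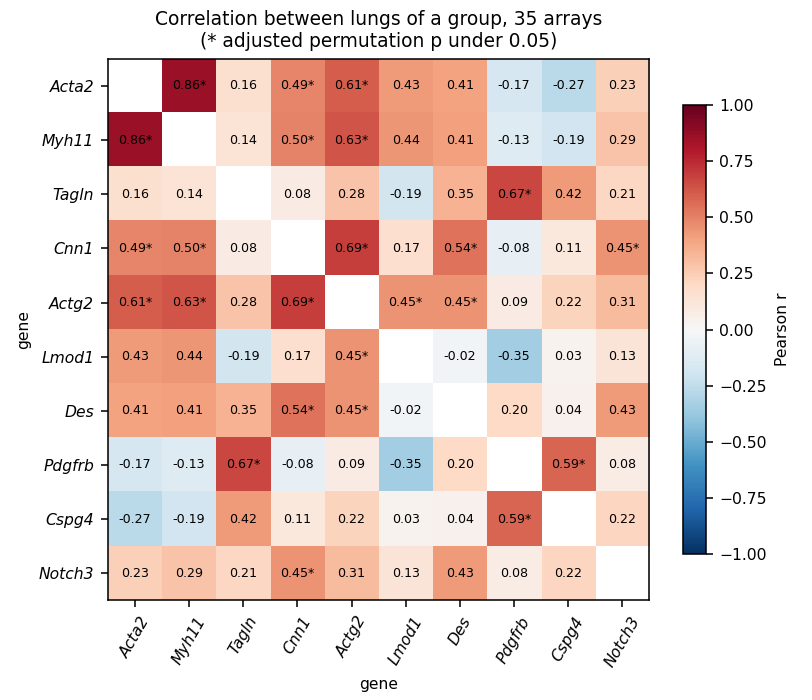
Pearson r between the 10 genes over 35 arrays after group means were removed, with pairs of an adjusted permutation p under 0.05 marked by a star. Acta2, Myh11, Cnn1 and Actg2 form a block of positive r from 0.49 to 0.86, and Tagln pairs with Pdgfrb at 0.67.

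Among all genes, those most like each member in this within-group variation are given as a description over 35 arrays. For Myh11 they were Acta2 (r = 0.86), Synpo2 (0.76), which encodes an actin-bundling protein of the Z-disc and dense bodies, and Dmd (0.75), which encodes dystrophin. For Acta2 they were Myh11, the serotonin receptor Htr2a (0.72) and Cc2d2a (0.72). For Des they were the tropomyosin Tpm2 (0.76), the striated muscle gene Smpx (0.75) and the keratin Krt5 (0.73). For Pdgfrb they were the sphingosine 1-phosphate receptor S1pr3 (0.84), Klhl23 (0.80) and Tlr12 (0.80). Tagln had no gene above Pdgfrb (0.67), Mri1 following at 0.65. Cnn1 was most like Pgf (0.79), Actg2 like Adarb1 (0.76), Lmod1 like Scube3 (0.78), Cspg4 like Fscn1 (0.73) and Notch3 like Sufu (0.74).

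Counts from wider gene lists are set beside the share of all genes, which against non-ventilated lungs was 18.9% falling and 17.4% rising at high stretch without CO2, and 17.6% and 16.3% with CO2. At low stretch it was 5.17% falling and 6.63% rising without CO2, and 7.02% and 7.99% with CO2. Other genes of smooth muscle contraction were read from a list of 22 measured genes. At high stretch without CO2, 11 fell, 1 rose and 10 did not pass against non-ventilated lungs, with a median of -0.26 log2. Itga8, an integrin subunit of mesenchymal cells, fell by 0.62 on the log2 scale, Pgm5, a protein of its adhesion plaques, fell by 0.54, and Mylk, the myosin light chain kinase that starts contraction, fell by 0.43. Pdlim7, which links actin fibres to signalling proteins, rose by 0.86 log2. With CO2, 6 fell, 2 rose and 14 did not pass. Itga8 there fell by 0.37 on the log2 scale, Pgm5 fell by 0.33, and Pdlim7 rose by 0.94 log2. Between the high stretch groups 2 of the 22 were higher with CO2, Itga8 by 0.25 ± 0.06 log2 (adjusted p = 0.0046) and Pgm5 by 0.21 ± 0.06 log2 (adjusted p = 0.0275), and 0 were lower, where 2.49% of all genes were higher and 3.07% lower. At low stretch 7 of 22 fell both without and with CO2, and 0 rose.

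Serum response factor, which drives the contractile genes, rose at high stretch. Of 17 measured regulators and targets of this system, 7 rose and 5 fell at high stretch without CO2 against no ventilation, and 7 rose and 4 fell with CO2. The share of all genes that rose was 17.4 and 16.3%, and the share that fell 18.9 and 17.6%, so that the falls with CO2 were near the background. Srf itself rose by 0.52 ± 0.05 log2 without CO2 and by 0.60 ± 0.05 log2 with it. Klf5, a growth-related factor of smooth muscle, rose by 0.76 and 0.56 log2, and Tbx2 changed by -0.70 and -0.75 log2. Vcl, vinculin of cell adhesions, rose by 0.39 log2 without CO2. Against low stretch, 9 of 17 rose and 1 fell, both without and with CO2, where 8.72 and 5.43% of all genes rose, and Srf rose by 0.74 and 0.72 log2. Low stretch itself gave 0 rises and 6 falls without CO2, with Klf4, a repressor of contractile genes, at -0.55 ± 0.09 log2 and Srf at -0.22 ± 0.06 log2 (adjusted p = 0.0133). Srf stood below the non-ventilated level at low stretch without CO2 and above it at high stretch. Without CO2, Acta2 was at -0.15 log2 at low stretch, which did not pass (adjusted p = 0.336), and at -0.35 log2 at high stretch. Its difference between those 2 stretch levels did not pass (adjusted p = 0.0753).

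Among 17 pericyte genes 7 fell and 2 rose at high stretch without CO2, and 4 fell and 2 rose with CO2. All genes fell at 18.9 and 17.6% and rose at 17.4 and 16.3%, so that the counts with CO2 were near the background. The subunits of soluble guanylate cyclase, the nitric oxide receptor that relaxes mural cells, both fell, with Gucy1b1 at -0.58 and -0.60 log2 and Gucy1a1 at -0.43 and -0.51 log2, without and with CO2. Angpt1, the pericyte ligand of the endothelial receptor Tie2, changed by -0.58 and -0.56 log2. Steap4 rose by 0.82 log2 without CO2. At low stretch 3 of 17 fell and 1 rose without CO2, and 4 fell and 0 rose with CO2. These are to be set beside Pdgfrb and Cspg4, which passed in none of these comparisons.

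The ligands of Pdgfrb were read with 6 genes of PDGF signalling. Pdgfb, the ligand that endothelial cells give to pericytes, was lower than in non-ventilated lungs at low stretch without CO2 (-0.48 ± 0.15 log2), at low stretch with CO2 (-0.72 ± 0.15 log2) and at high stretch with CO2 (-0.65 ± 0.13 log2). Between high stretch groups, where 5.56% of all genes passed and 3.07% were lower, it was the 1 of 6 that passed. It was lower with CO2, at -0.59 ± 0.10 log2 (adjusted p = 0.000463). Without CO2 it rose from low to high stretch by 0.42 ± 0.13 log2 (adjusted p = 0.0168). Pdgfa fell in all 4 ventilated groups, by changes of -0.46 to -0.57 log2. Pdgfra, the fibroblast receptor, rose by 0.36 log2 at high stretch without CO2.

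Of 14 Notch pathway genes other than Notch3, 7 fell and 1 rose at high stretch without CO2, and 7 fell and 2 rose with CO2. All genes fell at 18.9 and 17.6%, and the rises, at 17.4 and 16.3% of all genes, were no more frequent in the list. Jag1, a ligand for Notch3 on endothelial and mural cells, changed by -0.57 and -0.63 log2, and Nrarp, a target and inhibitor of Notch signalling, changed by -0.66 and -0.56 log2. Hey2, a Notch target, changed by -0.44 ± 0.10 log2 without CO2, and Notch2 rose by 0.31 and 0.35 log2. At low stretch without CO2, where Notch3 was the 1 member that fell, 6 of the 14 fell and 1 rose, led by Nrarp (-0.85 log2), Hes1 (-0.52 log2), Lfng (-0.46 log2) and the ligand Dll4 (-0.65 log2). From low to high stretch without CO2 the targets Hes1 and Heyl rose by 0.50 and 0.42 log2, and Jag1 and Hey2 changed by -0.31 and -0.40 log2.

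Of 13 receptors, channels and regulators of smooth muscle tone, 3 fell and 2 rose at high stretch without CO2, near the 18.9% and 17.4% of all genes. The prostaglandin F receptor Ptgfr changed by -0.98 ± 0.14 log2, the endothelin receptor Ednrb by -0.41 ± 0.07 log2 and the muscarinic receptor Chrm3 by -0.23 ± 0.07 log2, while Rgs4, which damps G protein signals, rose by 0.47 ± 0.10 log2. Rgs4 was the 1 of 13 that differed between high stretch groups, lower with CO2, at -0.52 ± 0.08 log2 (adjusted p = 9.65e-05). That count was near the background, as 5.56% of all genes passed there and 3.07% were lower. At low stretch without CO2 the angiotensin receptor Agtr1a rose by 0.53 ± 0.10 log2 and the muscarinic receptor Chrm2 by 0.42 ± 0.13 log2.

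Markers of other cell types moved in the same comparisons, beside all genes of which 18.9% fell and 17.4% rose at high stretch without CO2. At high stretch without CO2 against no ventilation, 7 of 9 endothelial genes fell, and their summed log2 signal was 14.14 to 14.38 against 14.65 to 14.73. In the same comparison the summed signal of the 7 contractile genes was 12.50 to 12.81 against 12.88 to 13.04. All 7 neutrophil genes rose, from a summed signal of 9.55 to 12.65 in non-ventilated lungs to 13.08 to 14.71 over all ventilated groups. Of 11 fibroblast genes 6 fell and 2 rose, and of 9 alveolar, 6 airway and 5 mesothelial genes 3, 4 and 2 fell and 0 rose. The 2 rises of fibroblast genes were near the share of all genes. Of 11 genes of the cardiac muscle sleeves of pulmonary veins 2 fell, near the 18.9% of all genes. They were Actc1 with -0.71 ± 0.14 log2 and Ryr2 with -0.42 ± 0.11 log2. The summed signal of the 11 was 12.35 to 13.33 against 13.11 to 13.49. Between the high stretch groups all 11 of these cardiac genes were on the higher side with CO2, by a median of 0.16 log2, and 0 of 11 passed. So were the 7 contractile genes and the 10 skeletal muscle genes, the latter by a median of 0.30 log2 with 0 passing. Skeletal muscle signal marked high stretch hypercapnia replicates 1 and 2 and no high stretch normocapnia array. The part of any of these cell types in the results on the 10 genes was not tested.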

How the data were processed

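RNA of 35 mouse lungs was measured on 1 array each. The authors deposited log2 signals. Per the submitters' processing notes the tools were RMA, Partek and Affymetrix Expression Console, with no version or role stated. The genome build is not given in the sources used here. Of 35557 probe sets, 21789 carried 1 gene symbol, 1621 several and 12147 none in the platform table used. The probe set with the highest mean was kept per gene, with no filter on level, which left 19938 genes. A model of group means (limma 3.58.1, R 4.3.3) took all 35 arrays, with lmFit, contrasts.fit and eBayes, 9 contrasts and Benjamini-Hochberg adjustment within each. The fit and the correlations were tested on simulated data. Errors of changes are SE, intervals are 95% and unadjusted. The number of arrays limits the precision.

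The 10 genes and all lists were chosen with earlier results of these data known. From each list at most the 4 genes with the smallest p in the comparison described are named, and as most alike up to 3 genes with the highest r. Some genes of the lists are not reported here. Replicate numbers come from the labels. Same-numbered arrays of different groups had a median correlation of deviations of 0.023 over 55 pairs of arrays, of which 17 were over 0.1. In 18 of 110 checks an array was closest to the array of its own number in another group. The labels do not say what a number marks. No pairing was assumed, and a pairing within some of the groups is not excluded. Alternatives were a replicate block, array weights, eBayes with trend and robust options, genes above the median level, the mean of a gene's probe sets, median-centred arrays, quantile normalization once more, only the groups compared, each array left out in turn, and, added after the data had been seen, the 5 arrays of skeletal muscle signal left out.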

Additional observations from a re-analysis of the deposited data

Results flagged for a closer look

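In low stretch normocapnia 1 lung stood apart from the other 4 in Pdgfrb, the receptor of mural cells. Replicate 5 read 10.97, and the nearest of the others 10.38. By Dixon's test at the 95% level this was 1 of 50 combinations of gene and group checked, and chance gives about 1 in 20. The lung was also 1 of the 5 with skeletal muscle signal, and its part in the value was not tested.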

How the results depend on the processing

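No change of the 10 genes reversed under any alternative where it was called. Fitting only the groups compared left 0 of 10 genes called at low stretch against no ventilation without CO2 (main 1) and with CO2 (main 2), and 0 for high against low stretch with CO2 (main 1). The last was also 0 with array weights, with a second quantile normalization and with the replicate number as a block. The replicate block left 0 calls at low stretch with CO2 (Acta2 adjusted p = 0.0569, Cnn1 0.066). For high against low stretch without CO2 the count was 2 with array weights, with genes above the median level and with a second quantile normalization (main 1), Acta2 joining Myh11. For CO2 at high stretch it was 1 with array weights (Myh11, 0.20 log2, adjusted p = 0.0405), 1 with genes above the median level (Cspg4, adjusted p = 0.0401) and 1 without the arrays of skeletal muscle signal (main 0). Correlated pairs numbered 6 with centred arrays (main 12). Lmod1 lay below the level filter of genes above the median and has no value in that setting.

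With 1 array left out, the counts ranged from 0 to 1 and from 0 to 3 at low stretch without and with CO2, from 3 to 5 at high stretch with CO2 against no ventilation, from 1 to 2 for high against low stretch without CO2 and from 0 to 1 with CO2.

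Against no ventilation at high stretch with CO2, Lmod1 lost its call under the replicate block (adjusted p = 0.106), array weights (0.0985), centred arrays (0.102), a second quantile normalization (0.0977) and only the groups compared (0.0604). Pdgfrb passed under the block (-0.33 log2, adjusted p = 0.032) and the second quantile normalization (-0.29 log2, adjusted p = 0.0329), and Acta2 did not under the block (adjusted p = 0.0546). Actg2 at low stretch with CO2 passed with trend and robust options (adjusted p = 0.0493), with genes above the median level (0.0311) and after a second quantile normalization (0.0484). Des at high stretch without CO2 was lost under the block (adjusted p = 0.124) and centred arrays (0.102). No pairing by replicate number was assumed in the main fit. Same-numbered arrays correlated at -0.34 to 0.38.

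Over all genes, calls at low stretch against no ventilation numbered 1385 without CO2 and 1429 with CO2 in the fit of only the groups compared, against 2353 and 2993. CO2 at low stretch gave 23 in the main fit, 0 with only the groups compared and without the arrays of skeletal muscle signal, 78 above the median level, 84 after a second quantile normalization, 37 with centred arrays and 3 to 28 with 1 array left out. CO2 at high stretch gave 1109, against 2052 with array weights and 676 without the arrays of skeletal muscle signal. High against low stretch with CO2 gave 2017, against 1269 under the replicate block. The causes were not tested.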
